A study of Mus musculus with 12 samples.

Results

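The genes examined here were the 3 transforming growth factor beta ligand genes Tgfb1, Tgfb2 and Tgfb3, the bone morphogenetic protein gene Bmp4, the inhibitory Smad genes Smad6 and Smad7, and the inhibitor of DNA binding genes Id1, Id2, Id3 and Id4. They were chosen by gene symbol from the table of raw read counts, which listed all 10 of them among 55573 genes. RNA-sequencing had been performed on tumourspheres, floating cultures grown from single cells in serum-free medium with EGF and bFGF. The spheres were of the A1005, A1129 and A1471 lines, and each of these cell lines goes back to 1 breast tumour of the MMTV-Metmt;Trp53fl/+;Cre mouse model. All 3 lines therefore carried the Met transgene under the mammary MMTV promoter and the conditional Trp53 allele with Cre, also in the control group, and each line is a sample of 1 tumour. The paper describes all 3 as lines from tumours of spindloid, mesenchymal pathology. It also states that the mouse's own Met locus is amplified in this model. Each line was treated for 24 h with the vehicle DMSO, the Met inhibitor Crizotinib, the FGF receptor inhibitor PD173074 or both inhibitors (Combo), so that 12 libraries held 1 library per line in each of 4 treatments (n = 3 lines per treatment). The comparisons ask how expression responds to inhibition of either receptor and of both.

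TGF beta and BMP ligands bind paired serine and threonine kinase receptors at the cell surface, which phosphorylate receptor Smads that enter the nucleus with Smad4 and change transcription. Smad6 and Smad7 are induced by these ligands and feed back on the receptors: Smad7 restrains both branches, and Smad6 mainly the BMP branch. Id proteins lack a DNA-binding region and hold E proteins such as Tcf3, Tcf4 and Tcf12 away from their sites, and Id1, Id2 and Id3 are classical targets of BMP signalling. In mammary tumours the TGF beta ligands are known for their part in the epithelial-mesenchymal transition, and Id1 and Id3 for their part in stem-like cells.

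The 250 bases upstream of the annotated start are shown for Tgfb2 and Smad6, 2 genes whose levels separated the combination from DMSO, and for Tgfb1, a ligand gene whose level did not. Sequences are from RefSeq on GRCm38.p6, written 5′ to 3′ on the strand of the gene. The Tgfb2 window lies at chr1:186705990-186706239 on the minus strand, the Smad6 window at chr9:64022060-64022309 on the minus strand and the Tgfb1 window at chr7:25686752-25687001 on the plus strand. Capitals mark the letters CAGAC, which contain the core of the Smad-binding element.
Tgfb2: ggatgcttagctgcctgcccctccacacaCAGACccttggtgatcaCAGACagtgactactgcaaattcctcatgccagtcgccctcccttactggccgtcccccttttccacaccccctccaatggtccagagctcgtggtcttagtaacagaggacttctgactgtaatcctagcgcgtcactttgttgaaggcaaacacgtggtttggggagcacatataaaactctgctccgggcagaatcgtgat
Smad6: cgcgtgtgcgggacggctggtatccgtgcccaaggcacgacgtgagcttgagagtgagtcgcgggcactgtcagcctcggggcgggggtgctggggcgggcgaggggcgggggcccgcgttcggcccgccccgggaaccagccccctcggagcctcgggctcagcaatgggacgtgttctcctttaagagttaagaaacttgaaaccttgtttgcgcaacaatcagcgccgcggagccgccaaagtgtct
Tgfb1: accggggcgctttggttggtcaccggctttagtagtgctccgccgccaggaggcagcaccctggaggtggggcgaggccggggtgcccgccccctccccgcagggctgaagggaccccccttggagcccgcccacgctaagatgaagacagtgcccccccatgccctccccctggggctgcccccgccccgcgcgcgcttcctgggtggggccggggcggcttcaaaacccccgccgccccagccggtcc
Searched on both strands, CAGAC occurred 2 times in the Tgfb2 window and 0 times in the other two, against 42.2% of 32851 RefSeq windows of this length with at least 1 occurrence. The BMP-type Smad motif GGCGCC, present in 9.59% of all windows, and the AP-1 motif TGANTCA, present in 6.75%, did not occur in these 3. Among the other windows at hand, those of Id2 and Id4 held GGCGCC 1 time each, that of Id3 held CAGAC 2 times, and that of Bmp4 held none of the 3 motifs. These are matches of letters only.

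Libraries held between 13031492 and 17750476 counts (median 14897185), and all 10 genes were among the 13836 that passed the filter on low counts. Levels are given as CPM, the counts of a gene scaled to a fixed library size after TMM normalization, and levels of different genes are compared as CPM per kilobase of exon. In DMSO the order per kilobase was Id1 (60.0 ± 45.1, SD, n = 3), Id3 (24.8 ± 14.2), Tgfb1 (13.5 ± 10.1), Tgfb3 (12.9 ± 5.31), Id2 (9.57 ± 5.72), Smad7 (6.06 ± 1.07), Bmp4 (0.710 ± 1.13), Smad6 (0.665 ± 0.315), Tgfb2 (0.656 ± 0.391) and Id4 (0.482 ± 0.452). The step from Smad7, at 4.99 or more in every line, to Bmp4, at 2.01 or less, was the only one between neighbours in this order at which the 3 values did not overlap.

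After allowance for treatment, 7 of the 10 genes differed between the 3 lines (edgeR's quasi-likelihood test, adjusted p = 1.33e-06 for Id4 to 0.00786 for Smad7), a share close to the 73.9% of all genes tested that did. Tgfb3, Id2 and Id3 did not pass (adjusted p = 0.0677, 0.359 and 0.741). Tgfb1 was at 103 to 142 CPM over the 4 A1005 libraries, at 20.3 to 63.5 in A1129 and at 26.3 to 38.4 in A1471. Bmp4 was likewise at 4.24 to 6.61 CPM in A1005 and at no more than 0.716 in A1129 and 1.51 in A1471. Id4, in contrast, gave 0 or 1 count in each A1005 library, and 2.36 to 4.42 CPM in A1129 and 1.35 to 2.23 in A1471. A1005 also held reads of the leukocyte marker Ptprc, with 174 to 339 counts per library, against at most 2 counts in the other lines. Whether this has a part in the higher Tgfb1 and Bmp4 of A1005 was not tested, and in such bulk samples fewer cells of a type and less RNA per cell cannot be told apart.

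**Figure D1:**
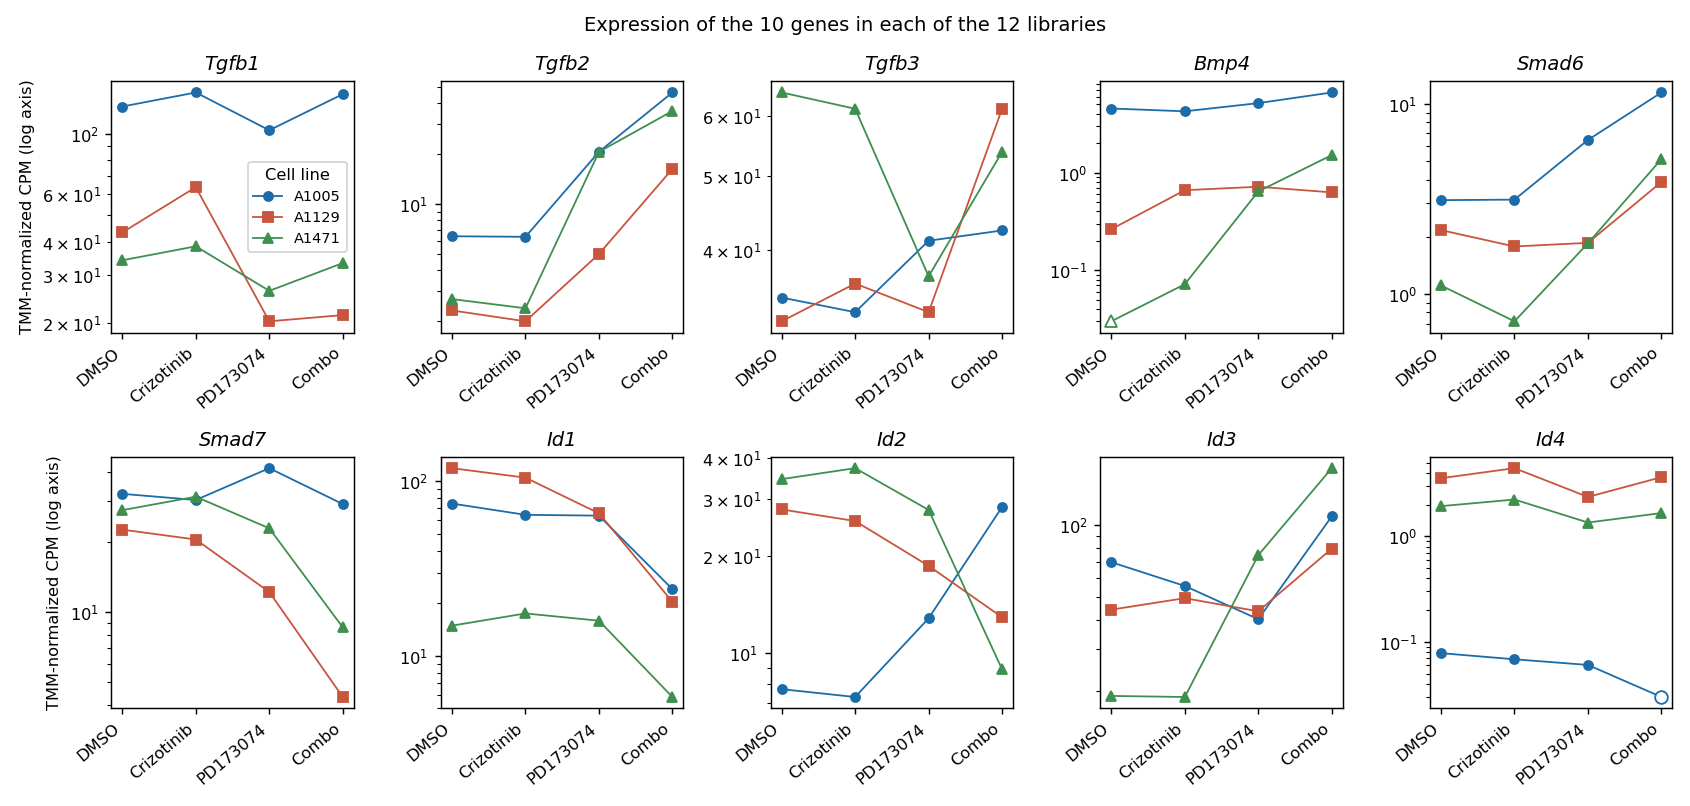
TMM-normalized CPM (vertical log axis, one scale per gene) of the 10 genes in each treatment, with 1 point per library and a line joining the libraries of each cell line. Open symbols at the bottom of the Bmp4 and Id4 panels stand for 0 counts. The 3 Combo points of Tgfb2 (16.2 to 46.5 CPM) lie above its 3 DMSO points (2.30 to 6.40 CPM), and the A1005 points of Tgfb1 and Bmp4 lie above those of the other lines throughout.

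Tgfb2 rose with the combination in every line. With DMSO it was at 6.40 CPM in A1005, 2.30 in A1129 and 2.69 in A1471, and with the combination at 46.5, 16.2 and 36.0 CPM. Within the lines this was 7.26-fold (95% interval for counting error 5.78 to 9.22), 7.02-fold (4.92 to 10.3) and 13.4-fold (9.63 to 19.0), with no overlap between the groups. The log2 fold change was 3.11 ± 0.73 (SE), with an adjusted p of 0.0201 in edgeR's unpaired quasi-likelihood test. In a second fit, which takes the cell line as a block and so compares treatments within lines, it was 3.12 ± 0.31 (adjusted p = 3.31e-05). Tgfb2 encodes the ligand that needs betaglycan for efficient receptor binding. An antisense gene, Gm29491, shares 124 bases of its exons, and whether the counting used strand is not given in the sources used here.

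Tgfb1 and Tgfb3, its paralogs, were not called. Tgfb1 was at 126, 43.2 and 34.1 CPM with DMSO in A1005, A1129 and A1471 and at 140, 21.4 and 33.3 CPM with the combination. Beyond counting error it was lower in A1129 (0.495-fold, 0.433 to 0.565) and slightly higher in A1005 (1.11-fold, 1.04 to 1.18), and the log2 fold change over all lines was -0.07 ± 0.88 (adjusted p = 0.977). Tgfb3 was at 34.6, 32.2 and 64.4 CPM with DMSO and at 42.4, 61.3 and 53.8 CPM with the combination, a log2 fold change of 0.26 ± 0.31 (adjusted p = 0.647). The lines did not move in 1 direction for either gene. Exons of Tgfb3 overlap 2 genes on the other strand, Gm37804 and Gm48008.

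Bmp4, a ligand of the BMP branch, was near the limit of detection outside A1005. The DMSO libraries of A1005, A1129 and A1471 gave 58, 4 and 0 counts, and those of the combination gave 119, 10 and 20. The rise within A1005 was 1.46-fold (1.06 to 2.04), and the ratio in A1129 was 2.38 (0.687 to 10.4). In A1471 the ratio was 7.28 when a floor of 3 counts stood in for the DMSO library. The interval for counting error in both A1471 libraries starts lower, at 5.39-fold. The log2 fold change was 0.87 ± 1.73 unpaired (adjusted p = 0.803) and 1.35 ± 0.63 with the line block (adjusted p = 0.0925), so no change was called in either fit. Gm15217 on the other strand shares 89 bases of its exons.

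The inhibitory Smad genes moved apart. Smad6 was at 3.12, 2.17 and 1.11 CPM with DMSO in A1005, A1129 and A1471 and at 11.5, 3.89 and 5.13 CPM with the combination, and the groups did not overlap. Smad7 was at 32.2, 22.6 and 27.4 CPM with DMSO and at 29.1, 4.32 and 8.60 CPM with the combination. The Smad7 values of A1129 and A1471 were 0.192-fold (0.146 to 0.249) and 0.314-fold (0.252 to 0.387) their controls, while A1005 was within counting error (0.903-fold, 0.793 to 1.03). In the unpaired fit neither gene passed (log2 fold change 1.68 ± 0.73, adjusted p = 0.159 for Smad6, and -0.97 ± 0.64, adjusted p = 0.361 for Smad7). With the line block Smad6 rose (1.64 ± 0.31, adjusted p = 0.00155) and Smad7 fell (-1.27 ± 0.37, adjusted p = 0.0153). The blocked Smad7 call was lost without A1129 (-0.79, adjusted p = 0.146) and without A1471 (-1.09, adjusted p = 0.140), and the value was -2.01 without A1005.

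Among the Id genes, Id1 and Id3 moved in opposite directions. Id1 was at 74.6, 119 and 14.9 CPM with DMSO in A1005, A1129 and A1471 and at 24.1, 20.4 and 5.81 CPM with the combination. It was lower in each line, at 0.324-fold (0.288 to 0.363), 0.171-fold (0.151 to 0.192) and 0.389-fold (0.296 to 0.507), although the groups overlapped, with A1471 the lowest line in both. The log2 fold change was -2.05 ± 0.90 unpaired (adjusted p = 0.163) and -1.88 ± 0.21 with the line block (adjusted p = 6.99e-05), a fall in the blocked fit. Id3 was at 69.9, 44.1 and 19.1 CPM with DMSO and at 109, 79.7 and 174 CPM with the combination, without overlap. Its change was 1.56-fold (1.44 to 1.69) in A1005, 1.81-fold (1.65 to 1.99) in A1129 and 9.12-fold (8.05 to 10.4) in A1471. It did not pass unpaired (1.45 ± 0.54, adjusted p = 0.106) and rose with the block (1.5 ± 0.52, adjusted p = 0.0312), and DESeq2 without a block called it as well (adjusted p = 0.0301). The blocked call of Id3 was lost without A1129 (1.84, adjusted p = 0.0818), and without A1471 the value was 0.75.

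Id2 moved in opposite directions in different lines. It went from 7.73 to 28.3 CPM in A1005, from 27.8 to 12.9 in A1129 and from 34.5 to 8.90 in A1471. The ratios were 3.67 (2.95 to 4.6), 0.465 (0.392 to 0.551) and 0.258 (0.209 to 0.316), and the pooled log2 fold change was -0.48 ± 0.69 (adjusted p = 0.714). Id4 was at 3.55 and 1.93 CPM with DMSO in A1129 and A1471 and at 3.63 and 1.66 CPM with the combination, within counting error in both lines (log2 fold change -0.08 ± 1.72, adjusted p = 0.986). Its exons overlap A330033J07Rik and Gm49291 on the other strand.

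**Figure D2:**
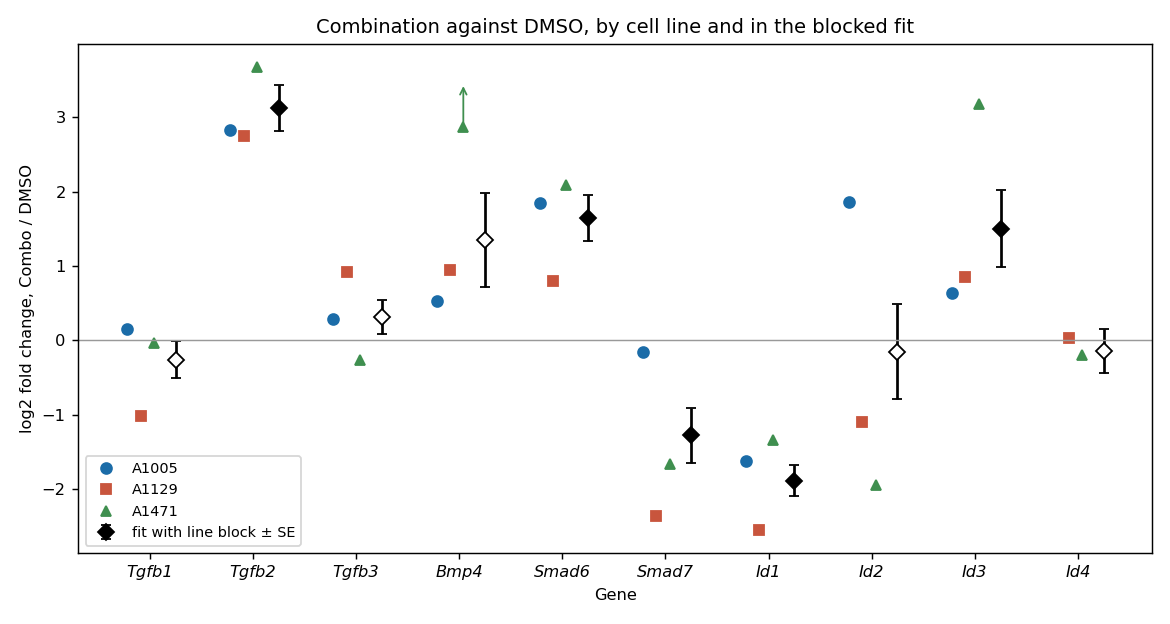
Log2 fold change of Combo over DMSO (vertical axis) for the 10 genes (horizontal axis), with coloured symbols for the 3 cell lines and diamonds for the edgeR fit with the line block ± SE, filled where the adjusted p was under 0.05. The arrow on Bmp4 in A1471 starts at the value against a floor of 3 counts, and Id4 in A1005, with 1 count or fewer, is left out. Tgfb2, Smad6 and Id3 lie above 0 in all 3 lines, Id1 lies below 0 in all 3, and Id2 lies above 0 in A1005 and below it in the others.

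Counted over the 10 genes, 1 rose and 0 fell with the combination in the unpaired fit, against 14.4% of all genes called. With the line block 3 rose and 2 fell, against 54.8%. Groups of 3 values did not overlap for 3 of the 10 (29.9% of all genes) and the direction was the same in all lines for 6 (65.8% of all genes). The 10 genes were therefore called about as often as genes in general. Their median log2 fold change was 0.10, and that of all genes tested was 0.024. Over 13 alternatives of normalization, filter, test, block and lines left out, the adjusted p ranged from 2.81e-05 to 0.248 for Tgfb2, from 0.00133 to 0.408 for Smad6, from 0.000358 to 0.785 for Smad7, from 6.82e-05 to 0.544 for Id1 and from 0.0235 to 0.330 for Id3, and none of these 5 changed direction. Without A1129 or without A1471 the unpaired edgeR fit called none of the 10 (1 and 4 at an unadjusted p under 0.05), and without A1005 it called Id2, Smad7 and Tgfb2.

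Shares within each family restate the levels above and were not tested or set against other genes. Between DMSO and the combination, the shares of Id1, Id3, Tgfb2, Smad6 and its complement Smad7 did not overlap. Those of Tgfb1, Tgfb3, Id2 and Id4 did overlap, with Tgfb3 averaging 50.7% and 51.1%. Of the summed CPM per kilobase of the 4 Id genes, Id1 made up 55.9% ± 20.3 (SD, n = 3) with DMSO and 17.6% ± 11.3 with the combination, and Id3 made up 27.4% ± 9.56 and 73.9% ± 15.1. The total of the 4 averaged 95.1 ± 51.9 CPM per kilobase with DMSO and 89.2 ± 19.2 with both inhibitors, but the lines moved differently. It went from 107 to 93.2 in A1005, from 140 to 68.3 in A1129 and from 38.2 to 106 in A1471. Among the TGF beta ligand genes the share of Tgfb2 was 2.32% ± 0.652 with DMSO and 16.4% ± 5.25 with the combination. The ligand totals were 27.1 ± 8.97 and 34.0 ± 12.4. In A1005, A1129 and A1471 they went from 36.4, 18.5 and 26.3 to 48.2, 25.1 and 28.7, higher in each line. Smad6 made up 9.76% ± 3.79 of the inhibitory Smads with DMSO and 45.8% ± 10.1 with the combination, at totals of 6.73 ± 1.25 and 5.22 ± 4.19.

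**Figure D3:**
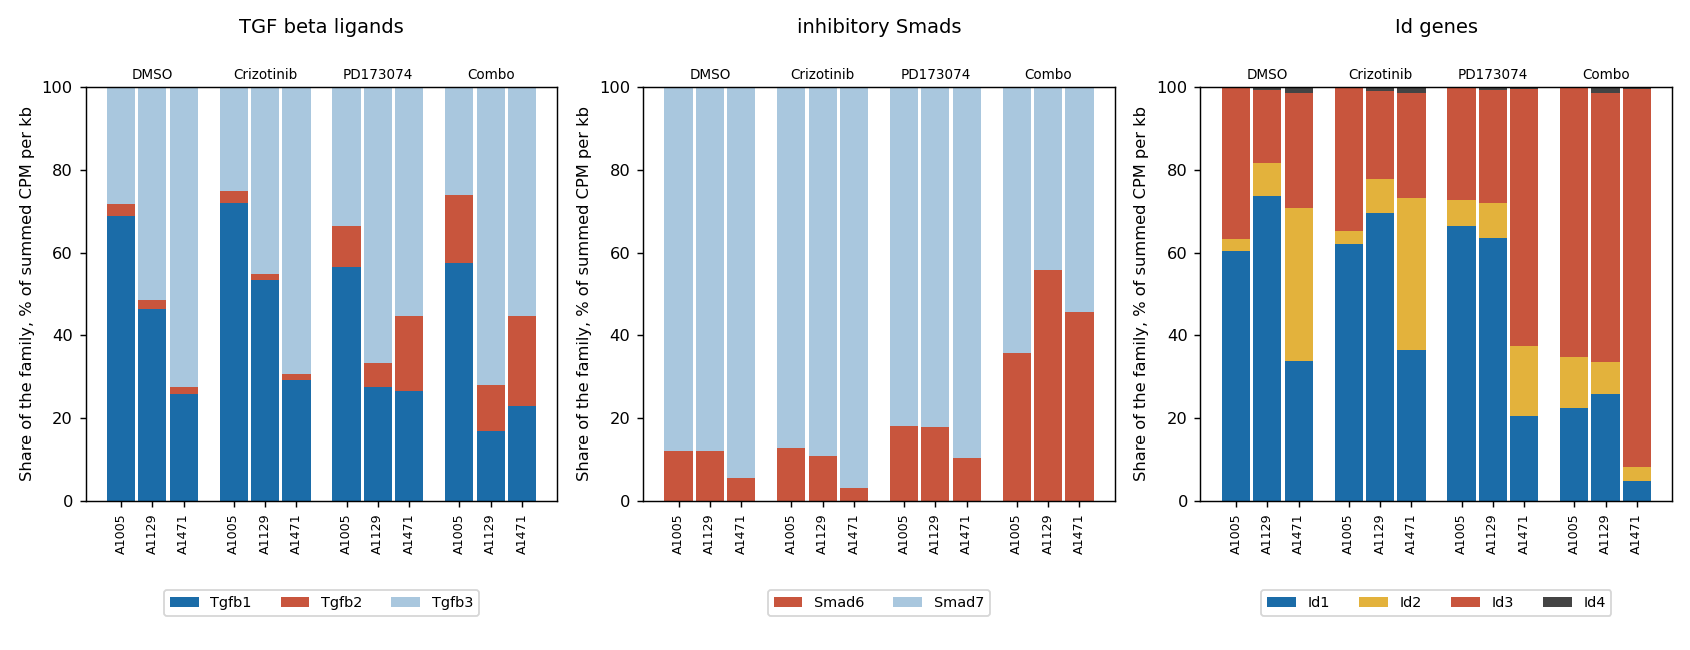
Share of each gene in the summed CPM per kilobase of its family (vertical axis, %), for the 12 libraries grouped by treatment, in 3 panels for TGF beta ligands, inhibitory Smads and Id genes. Id3 averages 27.4% of the Id genes with DMSO and 73.9% with Combo, and Smad6 averages 9.76% and 45.8% of the inhibitory Smads.

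PD173074 alone raised Tgfb2 in the fit with the line block. Tgfb2 was at 20.5 CPM in A1005, 5.01 in A1129 and 20.5 in A1471, which was 3.21-fold (2.52 to 4.14), 2.18-fold (1.43 to 3.36) and 7.61-fold (5.43 to 10.9) the DMSO level. The log2 fold change was 1.97 ± 0.31 with the block (edgeR, adjusted p = 0.0144, against 2.14% of all genes called) and 2.01 ± 0.70 unpaired (adjusted p = 1.0). Unpaired, 0 of the 10 genes and 0.0% of all genes were called, 1 of the 10 had an unadjusted p under 0.05, and DESeq2 called 0 of the 10. The blocked call was lost without A1005 and without A1471, and the adjusted p ranged from 0.0137 to 1.0 over the 13 alternatives.

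The other 9 genes did not pass with PD173074 in either fit, with log2 fold changes in the blocked fit between -0.57 (Tgfb1) and 0.82 (Bmp4). Tgfb1, at 103, 20.3 and 26.3 CPM in A1005, A1129 and A1471, was below its control beyond counting error in each line. The ratios were 0.818 (0.764 to 0.876), 0.470 (0.408 to 0.541) and 0.772 (0.673 to 0.885), without a call in the blocked edgeR fit (-0.57 ± 0.25, adjusted p = 0.315). Id1, at 63.6, 65.6 and 15.9 CPM, was below its control beyond counting error in A1005 and A1129 (-0.37 ± 0.20, adjusted p = 0.413). Smad6 was at 6.47, 1.86 and 1.85 CPM (0.55 ± 0.33, adjusted p = 0.455). Id3 was at 40.2, 43.4 and 74.8 CPM, lower than its control in A1005 and 3.92-fold (3.43 to 4.5) higher in A1471.

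No gene of the 10 was called with Crizotinib alone. In both edgeR fits 0 of the 10 and 0.0% of all genes were called, 0 of the 10 had an unadjusted p under 0.05, and DESeq2 called 0 of the 10. Tgfb2 was at 6.35, 1.98 and 2.37 CPM, 0.993-fold (0.730 to 1.35), 0.861-fold (0.510 to 1.44) and 0.881-fold (0.537 to 1.44) its controls. Id1 was at 64.3, 105 and 17.5 CPM, Id3 at 55.5, 49.3 and 18.9 CPM, and Smad7 at 30.3, 20.5 and 31.3 CPM. Beyond counting error, Tgfb1 was higher in A1005 (1.13-fold, 1.05 to 1.2) and A1129 (1.47-fold, 1.33 to 1.62). Id1 was lower in these lines (0.862-fold, 0.787 to 0.945, and 0.879-fold, 0.821 to 0.941). Id3 was lower in A1005 (0.794-fold, 0.721 to 0.874) and higher in A1129 (1.12-fold, 1.01 to 1.24). In A1471 all of these genes were within counting error. With the line block the 10 log2 fold changes lay between -0.24 (Smad6) and 0.33 (Tgfb1), with standard errors of 0.20 (Id1) to 0.66 (Bmp4), so that changes of this size were not detectable.

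**Figure D4:**
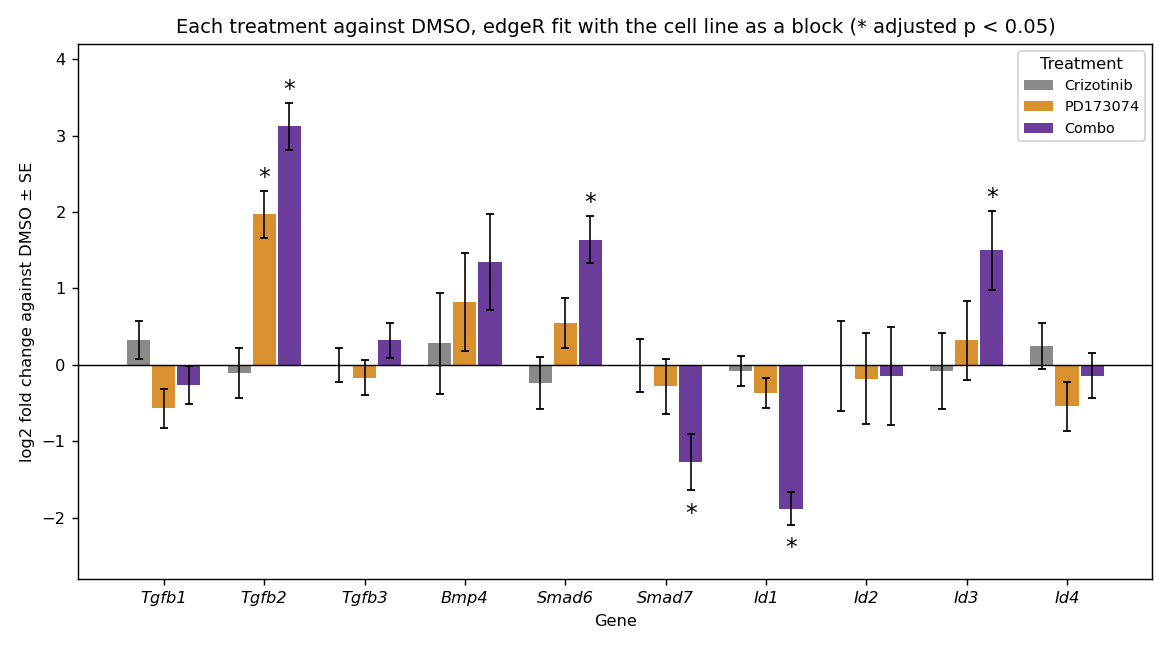
Log2 fold change against DMSO ± SE (vertical axis) of the 10 genes (horizontal axis) for Crizotinib, PD173074 and Combo, from the edgeR fit with the cell line as a block. Stars mark an adjusted p under 0.05. With PD173074 a star stands on Tgfb2 (1.97), with Combo on Tgfb2 (3.12), Smad6 (1.64), Smad7 (-1.27), Id1 (-1.88) and Id3 (1.5), and with Crizotinib on none.

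The combination was also compared with each inhibitor alone. These comparisons share libraries with those above and are not separate evidence. Against Crizotinib, edgeR's unpaired fit called Tgfb2 alone of the 10 (log2 fold change 3.20 ± 0.73, adjusted p = 0.0184), where 13.2% of all genes were called, and DESeq2 called Tgfb2 and Id3. Without A1129 or without A1471 the unpaired edgeR fit called none of the 10 (1 and 3 at an unadjusted p under 0.05), and without A1005 it called Id2, Smad7 and Tgfb2. With the block 5 of the 10 passed, against 53.4% of all genes: Tgfb2 (3.23 ± 0.31), Smad6 (1.88 ± 0.32) and Id3 (1.58 ± 0.52) rose, and Id1 (-1.80 ± 0.21) and Smad7 (-1.26 ± 0.37) fell. The blocked call of Smad7 was lost without A1129 (-0.86) and without A1471 (-0.96), and that of Id3 without A1129 (2.08). The Smad7 value was -2.03 without A1005, and that of Id3 was 0.85 without A1471.

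Against PD173074 the unpaired fit called 0 of the 10 genes, with 1 at an unadjusted p under 0.05 and 0 in DESeq2, where 4.77% of all genes were called. With the block 3 passed, against 39.8%: Tgfb2 rose by 1.16 ± 0.28 on the log2 scale (edgeR, adjusted p = 0.00857), Smad6 rose by 1.09 ± 0.30 (adjusted p = 0.0165) and Id1 changed by -1.51 ± 0.21 (adjusted p = 0.000573). The blocked call of Tgfb2 was lost without A1129 (0.98, adjusted p = 0.0749) and that of Smad6 without A1005 (1.30, adjusted p = 0.0536) and without A1471 (0.89, adjusted p = 0.105), while Id1 was called without each line. Id1 was 0.379-fold (0.338 to 0.424), 0.310-fold (0.273 to 0.353) and 0.366-fold (0.279 to 0.476) its PD173074 level in A1005, A1129 and A1471, with the 95% intervals of A1471 holding the ratios of both other lines. Smad7 (-0.99 ± 0.37, adjusted p = 0.0544) and Id3 (1.18 ± 0.50, adjusted p = 0.0840) had the same direction in all lines and did not pass, although Smad7 did without A1005 (-1.44) and Id3 without A1471 (1.14).

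The departure from additivity asks whether the change with both inhibitors differs from the sum of the changes with each, on the log2 scale. Unpaired, 0 of the 10 genes departed (0.918% of all genes), with 0 at an unadjusted p under 0.05 and 0 in DESeq2. With the line block Id1 departed, by -1.43 ± 0.29 (edgeR, adjusted p = 0.0112, 0.0112 to 1.0 over the 13 alternatives), against 16.2% of all genes, and the call was lost without A1471. Smad6 (1.33 ± 0.46, adjusted p = 0.0724) and Tgfb2 (1.27 ± 0.43, adjusted p = 0.0722) did not pass.

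The other genes of the TGF beta and BMP pathways were taken from fixed lists of 101 genes, of which 64 had enough counts to be tested. With the combination 3 rose and 1 fell in the unpaired fit, against 14.4% of all genes called. These were Pmepa1, a TGF beta target that restrains receptor Smads (log2 fold change 2.41 ± 0.52, adjusted p = 0.0148), Itgb8, an integrin subunit that helps to activate latent TGF beta (3.44 ± 0.70, adjusted p = 0.0106), the BMP receptor gene Bmpr2 (0.59 ± 0.17, adjusted p = 0.0442) and Smurf1, a ubiquitin ligase acting on Smads (-0.60 ± 0.15, adjusted p = 0.0241). With the line block 27 rose and 6 fell, a share to be read against 54.8% of all genes. The median log2 fold change of the 64 was 0.25 in that fit.

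Pmepa1 was at 12.6, 9.54 and 16.2 CPM with DMSO in A1005, A1129 and A1471 and at 95.1, 46.8 and 61.7 CPM with the combination. Itgb8 went from 5.62, 1.18 and 1.24 CPM to 23.9, 40.8 and 22.6 CPM. Bmpr2 went from 93.5, 112 and 135 CPM to 151, 191 and 171 CPM, and Smurf1 from 115, 110 and 99.7 CPM to 73.5, 67.9 and 73.0 CPM. These 4 genes were picked by the test on the same values. For each of them the 2 groups did not overlap, as was so for 29.9% of all genes tested.

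By role, and in the fit with the line block (adjusted p at most 0.0493 for each gene said to rise or fall, with 54.8% of all genes called), 2 of 7 other ligand genes tested rose and 1 fell, while 21 of the 28 listed had too few counts. Inhbb, an activin subunit, rose from 1.56, 0 and 2.90 CPM to 53.3, 0.188 and 7.92 CPM (3.28 ± 0.81), and rested on A1005 for its high level, Gdf11 rose (0.78 ± 0.24), and the activin subunit gene Inhba fell (-0.81 ± 0.30). Of 11 receptor genes tested, 5 rose, with the co-receptor Eng (1.26 ± 0.27), the type II TGF beta receptor Tgfbr2 (0.70 ± 0.13) and Bmpr2 (0.60 ± 0.09) as the largest rises, and 0 fell. The signalling Smad genes Smad1 to Smad5 were not called, with changes between -0.13 (Smad4) and 0.23 (Smad3), and Smad9 rose (1.54 ± 0.51) on counts that went from 0, 50 and 4 to 10, 163 and 2 in A1005, A1129 and A1471.

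Of 16 genes for latency and extracellular antagonists, 8 rose and 2 fell, against 54.8% of all genes called in that fit, and Itgb8 alone passed unpaired. Chrd, the BMP antagonist chordin, rose most (3.88 ± 0.65, from 19, 6 and 0 counts to 142, 203 and 9), followed by Itgb8 (3.68 ± 0.52) and Thbs1, an activator of latent TGF beta (3.39 ± 0.60). Ltbp1 (-0.91 ± 0.13) and Ltbp3 (-0.75 ± 0.14), which encode proteins that bind latent TGF beta, fell. Of 9 intracellular regulators, Pmepa1 (2.40 ± 0.32), Nedd4l (0.65 ± 0.21) and Ski (0.53 ± 0.12) rose and Smurf1 (-0.59 ± 0.11) and Tgif1 (-0.51 ± 0.20) fell.

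Of 10 TGF beta target genes tested, 6 rose and 1 fell, against the same 54.8%, and Pmepa1 alone passed unpaired. The 3 largest rises were Pmepa1, the matrix gene Tgfbi (2.34 ± 0.42, from 125, 26.6 and 75.3 CPM to 250, 263 and 358 CPM) and Col1a1 (1.83 ± 0.24), whose reads came almost wholly from A1005 (229 and 759 CPM, against 0.679 or less in the other lines). Snai1, a repressor of epithelial genes, fell (-0.74 ± 0.16). Of 5 other BMP target genes 1 rose, Atoh8 (3.46 ± 0.84), from 0, 40 and 1 counts to 87, 90 and 63. Of the E protein genes bound by Id proteins, Tcf4 (0.53 ± 0.12) and Tcf12 (0.24 ± 0.09) rose and Tcf3 was not called.

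**Figure D5:**
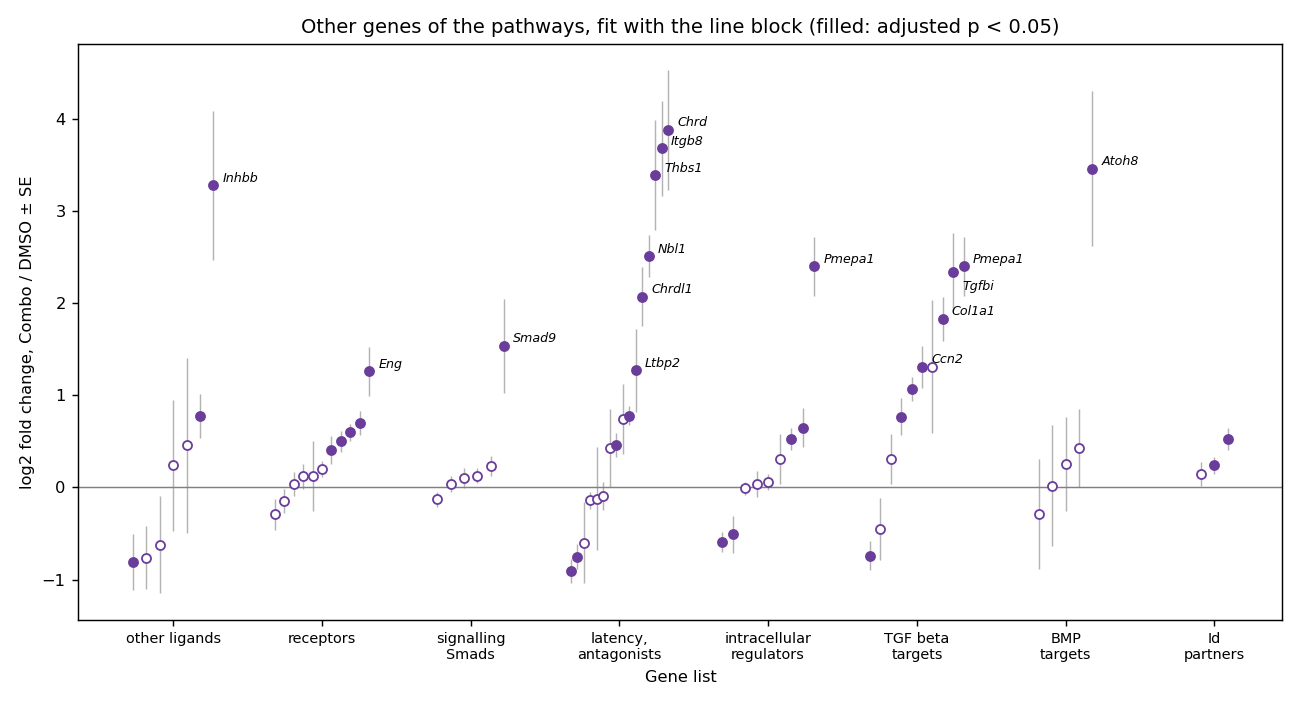
Log2 fold change of Combo over DMSO ± SE (vertical axis) in the fit with the line block for the 64 tested pathway genes in 8 lists (horizontal axis), with Pmepa1 and 2 other genes that stand in a pair of lists drawn in each. Filled points had an adjusted p under 0.05, and names are given for filled points beyond 1.2. Of the 64 genes, 27 rose and 6 fell, with Chrd (3.88) and Itgb8 (3.68) the highest.

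Likeness to other genes was measured as Pearson's r of log2 CPM centred within each line, over the 12 libraries, which share lines and treatments. The genes most like Tgfb2 were Parp9 (r = 0.997), Fas (0.995) and Tapbpl (0.993). Those most like Smad6 were Snx8 (0.985), Anxa1 (0.982) and Armc10 (0.982), and those most like Id3 were Zfp90 (0.975), Zfp560 (0.969) and Zfp622 (0.966). For Id1 they were Emilin2 (0.985), Pvt1 (0.985) and Cbx1 (0.984), and for Smad7 Srprb (0.979), Mthfd2l (0.975) and Ndufa5 (0.973). Among the 10 genes themselves the highest values were 0.92 for Tgfb2 with Smad6 and 0.90 for Bmp4 with Id3. The lowest was -0.80 for Tgfb2 with Id1. Values for Bmp4 rest on few counts outside A1005, at most 20 per library.

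The remaining genes had looser neighbours. Tgfb1 was most like Pbx2 (0.952), Ptk2b (0.939) and Stac2 (0.925), Tgfb3 most like Snx21 (0.905), Fnbp1 (0.881) and Rreb1 (0.878), and Bmp4 most like Col7a1 (0.961), Pced1b (0.958) and Amigo2 (0.941). Id2 was most like 1110065P20Rik (0.964), Selenof (0.939) and Creld2 (0.925), and Id4 most like Rtkn (0.903) and Mtmr11 (0.872).

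The labelled tumour cells were checked with marker genes. The mesenchymal marker Vim was at 1900 to 3200 CPM in every library, Cdh2 gave at most 6 counts, and the epithelial genes Epcam, Cdh1 and Krt5 gave at most 29, 9 and 0 counts. The epithelial keratin genes Krt8 and Krt18 gave reads in every library. Krt8 was at 14.6, 1.12 and 5.46 CPM with DMSO in A1005, A1129 and A1471 and at 34.0, 2.01 and 2.34 CPM with the combination, while Krt18 went from 153, 579 and 145 counts to 126, 315 and 53, a lower CPM in each line. The 4 leukocyte markers summed to 4.34 to 31.3 CPM with DMSO and 8.22 to 42.0 CPM with the combination, with Cd68 at 17.7, 4.21 and 5.18 CPM and at 24.4, 10.8 and 8.22 CPM in A1005, A1129 and A1471 and Cd3e at 2 counts or fewer. The 3 endothelial markers summed to at most 0.627 CPM. The 6 mesenchymal markers summed to 3020 to 4000 CPM with DMSO and 3220 to 4740 CPM with the combination. Vim, the largest part of this sum, went from 3100, 2480 and 3090 CPM to 2740, 1900 and 3200 CPM in A1005, A1129 and A1471. Sparc, from the same list, rose in each line, from 664, 325 and 183 CPM to 1790, 1140 and 1260 CPM. Changes of Zeb1, Zeb2 and Twist1, the other tested genes of this list, are not reported here, and the sum does not give their direction. The paper reports reduced Twist1 with the combination, also by quantitative RT-PCR. The 6 epithelial markers summed to 16.1 to 39.6 CPM with DMSO and 7.32 to 42.2 CPM with the combination. The part of the Cd68, Krt8, Krt18, Vim and Sparc differences in the results for the combination was not tested.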

How the data were processed

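RNA-sequencing of 12 tumoursphere libraries was analysed. Per the labels and the study's methods, the authors sequenced on a NextSeq500 instrument, mapped reads with STAR to mm10 and deposited raw counts per Ensembl gene, without normalization; the submitters' processing notes also name bcl2fastq and HTSeq, with no versions, and strand use in counting is not given in the sources used here. Treatment and line came from the labels. No 2 of the 12 libraries were identical.

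Gene positions and exon lengths were taken from GENCODE M21, which held 55480 of 55573 genes, and upstream sequences from RefSeq (7 of the 10 genes had an entry). The filter on low counts was filterByExpr of edgeR, set to a minimum of 10 counts and a total of 15, and left 13836 genes holding at least 99.85% of the counts of each library, normalized by TMM and tested with edgeR 4.0.16 in R 4.3.3 (quasi-likelihood, Benjamini-Hochberg over all tested genes, threshold 0.05) in 1 unpaired fit over all libraries, as the study's methods state an unpaired analysis. P-values of this unpaired fit measure the spread between these 3 lines within treatments. The same fit with the cell line as a replicate block is given beside it, since the labels pair libraries by line. All 18 same-line pairs deviated together (r from 0.766 to 0.962). P-values of the blocked fit, and of the test between lines, measure the spread left after treatment and line. Intervals of 95% on a ratio within a line are exact binomial intervals and, like the floor of 3 counts, cover counting error only, as reads carry no molecular identifiers.

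Alternatives were DESeq2 1.42.0, its size factors, total counts, no filter, and leaving out each line with and without the block. The block with the 2 other normalizations was added after seeing the data. Named genes were the 10 genes, pathway genes from fixed lists (up to 3 rises and 3 falls past the threshold per list) and the 3 genes most like each of the 10, among genes whose mean log2 CPM (prior count 2) reached 3; some of the genes so chosen are not reported here. The genes and lists were chosen with earlier results of these data known. The fits were tested on simulated counts with the same spread for all genes and the same treatment effect in every line. That check does not cover effects that differ between lines. Tables and plots used Python 3.11.15, pandas 2.3.3, numpy 2.4.6 and matplotlib 3.10.9.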

Additional observations from a re-analysis of the deposited data

Results flagged for a closer look

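For 5 of the 10 genes, lines went in opposite directions beyond counting error under the same treatment. The values are log2 changes against DMSO in A1005, A1129 and A1471, in that order, and the difference between lines was not tested, since each line has 1 library per treatment.

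With the combination, Id2 differed most, at 1.86, -1.10 and -1.94. Tgfb1 was at 0.15, -1.01 and -0.03, and Tgfb3 at 0.29, 0.92 and -0.26.

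With PD173074 alone, Id3 was at -0.80, -0.02 and 1.97, Id2 at 0.72, -0.57 and -0.32, Smad7 at 0.36, -0.88 and -0.26, and Tgfb3 at 0.25, 0.04 and -0.80. With Crizotinib alone, Id3 was at -0.33, 0.16 and -0.01.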

How the results depend on the processing

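With the replicate block, the number of the 10 genes called was 5 for Combo against DMSO, 1 for PD173074 against DMSO, 5 for Combo against Crizotinib, 3 for Combo against PD173074 and 1 for the departure from additivity, and 33 pathway genes were called in place of 4. The block with DESeq2's size factors and the block with total counts, both chosen after seeing the data, gave the same numbers of the 10 genes (5, 1, 5, 3 and 1) and 32 pathway genes each. DESeq2 called 2 of the 10 genes for Combo against DMSO and against Crizotinib and 10 pathway genes, and without a filter 2 pathway genes were called. Crizotinib against DMSO gave 0 of the 10 genes under every alternative run.

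With 1 line left out, the unpaired fit called 0 to 3 of the 10 genes for Combo against DMSO, 0 to 3 for Combo against Crizotinib, 0 to 2 pathway genes and 4 to 6 of the 10 genes for the difference between lines. The block with 1 line left out called 3 to 6, 0 to 1, 3 to 7, 3 to 4 and 0 to 2 of the 10 genes in the 5 comparisons above, and 28, 29 and 23 pathway genes without A1005, A1129 and A1471.

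Reversed directions in the 34 named results occurred only on leaving out a line and were not called. Of the genes concerned, Id2 was called lower for Combo against DMSO without A1005 (-1.50 unpaired, -1.47 with the block). For Combo against DMSO the unpaired values ran from -0.48 to 0.11 for Tgfb1, -0.03 to 0.65 for Tgfb3, -1.50 to 0.24 for Id2 and -0.28 to 0.03 for Id4, and for PD173074 against DMSO from -0.46 to 0.17 for Tgfb3, -0.51 to 0.12 for Smad7 and -0.43 to 0.91 for Id3. With the block the reversed values were 0.07 (Tgfb1) and 0.37 and 0.55 (Id2) for Combo, and 0.17 (Tgfb3), 0.05 (Smad7), 0.08 (Id2) and -0.39 (Id3) for PD173074. Among 338 further values for 26 other results, 31 changed sign. The cause was not tested. Bmp4 outside A1005 and Id4 in A1005 rest on few counts, which limits what can be detected there.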
